A study of Mus musculus with 8 samples.

Results

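Erg and 9 further genes of the ETS family were followed through early B lymphopoiesis and in pre-proB cells that had lost Erg. The 10 genes, Erg, Fli1, Ets1, Spi1, Spib, Elf1, Elf4, Gabpa, Etv6 and Elk3, were a list of names matched to the 27179 Entrez Gene identifiers of the count table, and all 10 were found and passed the filter on low counts in every comparison. RNA was sequenced from sorted bone marrow cells of mice aged 7 to 10 weeks, as 8 libraries in 4 groups of 2 replicates. Erg fl/fl mice, in which loxP sites flank an exon of both Erg alleles and no Cre recombinase is present, gave a group each of pre-proB cells, of the proB cells they form and of the preB cells that follow. The remaining group came from Rag1Cre T/+;Erg Δ/Δ mice, called Erg-deficient below, where Cre expressed from Rag1 removes that exon from the lymphoid progenitor stage onwards, and held their pre-proB cells. Controls therefore lacked the Rag1Cre allele, and Cre and the loss of Erg cannot be told apart as the source of a difference between genotypes. The sort kept B220+ cells and removed those with IgM, IgD, NK1.1 or CD11c on their surface. The study sorted these populations from 2 mice of each genotype. The labels do not say which mouse gave which library, so stages may share mice, and p-values measure the spread between these libraries.

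ETS factors share a winged helix-turn-helix DNA-binding domain, the ETS domain, which contacts a GGAA core, so that several members can occupy one site and act in competition or in place of each other. Erg and Fli1 belong to one subfamily, together with Fev, and have near-identical ETS domains, and both are known as regulators of blood stem cells and endothelium. PU.1 (encoded by Spi1) and Spi-B (encoded by Spib) prefer purine-rich sites and have known roles at lymphoid enhancers, Ets1 is a lymphoid activator that cooperates with Runx1 and Pax5, and Etv6 (TEL) is a repressor.

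The 8 libraries held between 15565381 and 18457632 counts. Levels of a gene across libraries are given in CPM, its counts scaled to a common library size with TMM factors over the 8 libraries, and levels of different genes are compared only in FPKM, CPM divided by the length of the merged exons in kilobases. Differences between groups were tested by edgeR (quasi-likelihood test, Benjamini-Hochberg adjustment over all genes kept), and genes with an adjusted p below 0.05 are referred to as called. For a quantity tested alone, the smallest exact permutation p that 2 libraries against 2 can give is 0.33. Markers taken from textbook knowledge, with earlier results of these data known, gave RNA of other lineages in the pre-proB libraries of both genotypes. All 6 plasmacytoid dendritic cell markers, which include Siglech, were detected in every library, and their summed level ran from 7235 to 8601 CPM in the 4 pre-proB libraries and from 40.9 to 141 CPM in the proB and preB libraries. The 8 B lineage markers, which include Ebf1 and Pax5, summed to 1363 CPM in control pre-proB replicate 1 and to 537 CPM in replicate 2, against 79.7 and 85.0 CPM in Erg-deficient pre-proB cells and between 4365 and 7472 CPM in proB and preB cells. The 6 NK cell markers summed to 41.5 and 49.9 CPM in control and to 121 and 191 CPM in Erg-deficient pre-proB cells. For the 6 T cell markers the sums were 491 and 635 CPM in control and 1232 and 642 CPM in Erg-deficient pre-proB cells. Cd4 alone gave 474, 614, 1214 and 623 CPM of these. For the 7 myeloid markers they were 187 and 168 CPM in control and 137 and 104 CPM in Erg-deficient pre-proB cells. In such bulk populations, fewer cells that express a gene and less RNA per cell cannot be told apart. The part of plasmacytoid dendritic cell RNA, and of other RNA from outside the B lineage, in falls or rises from pre-proB cells to later stages was not tested for any gene.

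Erg (identifier 13876, chromosome 16, 95359169 to 95586593 on the minus strand of GRCm38, the build also called mm10) was most abundant in proB cells. Its level was 69.1 and 25.3 CPM in control pre-proB replicates 1 and 2, 144 and 127 CPM in proB cells and 19.6 and 28.7 CPM in preB cells. Both proB libraries lay above all other libraries, whereas pre-proB and preB cells overlapped. The rise from pre-proB to proB cells was a log2 fold change of 1.56 (SE 0.353, 95% interval 0.75 to 2.37, edgeR adjusted p = 0.00360), and the fall from proB to preB cells a log2 fold change of -2.48 (SE 0.374, edgeR adjusted p = 0.000623). PreB and pre-proB cells, neighbours in the order of levels, were not separated by the test, with a log2 fold change of -0.92 (95% interval -1.81 to -0.03, edgeR adjusted p = 0.0619). The pre-proB replicates differed by 2.73-fold in Erg, in the same direction as in the summed B lineage markers, and the part of those markers in the Erg difference was not tested. The size of the Erg rise into proB cells therefore depended on the pre-proB library used, at 2.40 without replicate 1 and 0.98 without replicate 2 on the log2 scale, and its edgeR adjusted p was 0.0829 under robust estimation against 3.14e-06 to 0.0183 under the other alternatives. Without pre-proB replicate 2 the preB cells were lower than pre-proB cells, at a log2 fold change of -1.51 (edgeR adjusted p = 4.67e-05), and without replicate 1 the log2 fold change was -0.09 (adjusted p = 0.692).

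In Erg-deficient pre-proB cells Erg was at 2.50 and 2.58 CPM, from 40 counts in each library against 1077 and 417 in the controls. Every Erg-deficient library lay below every control library, and the group mean was 5.38% of the control mean. The log2 fold change was -4.23 (SE 0.547, 95% interval -5.53 to -2.92, edgeR adjusted p = 0.0250). Counts are summed over the gene, so reads from exons outside the deleted part count as Erg. The direction was the same under all 15 alternatives, between -4.80 and -3.32, but the edgeR call was lost under robust estimation (adjusted p = 0.363) and without Erg-deficient replicate 1 (0.207) or replicate 2 (0.189), and limma-voom gave an adjusted p of 0.229. Adjusted p-values over the alternatives ran from 7.03e-08 to 0.363.

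**Figure D1:**
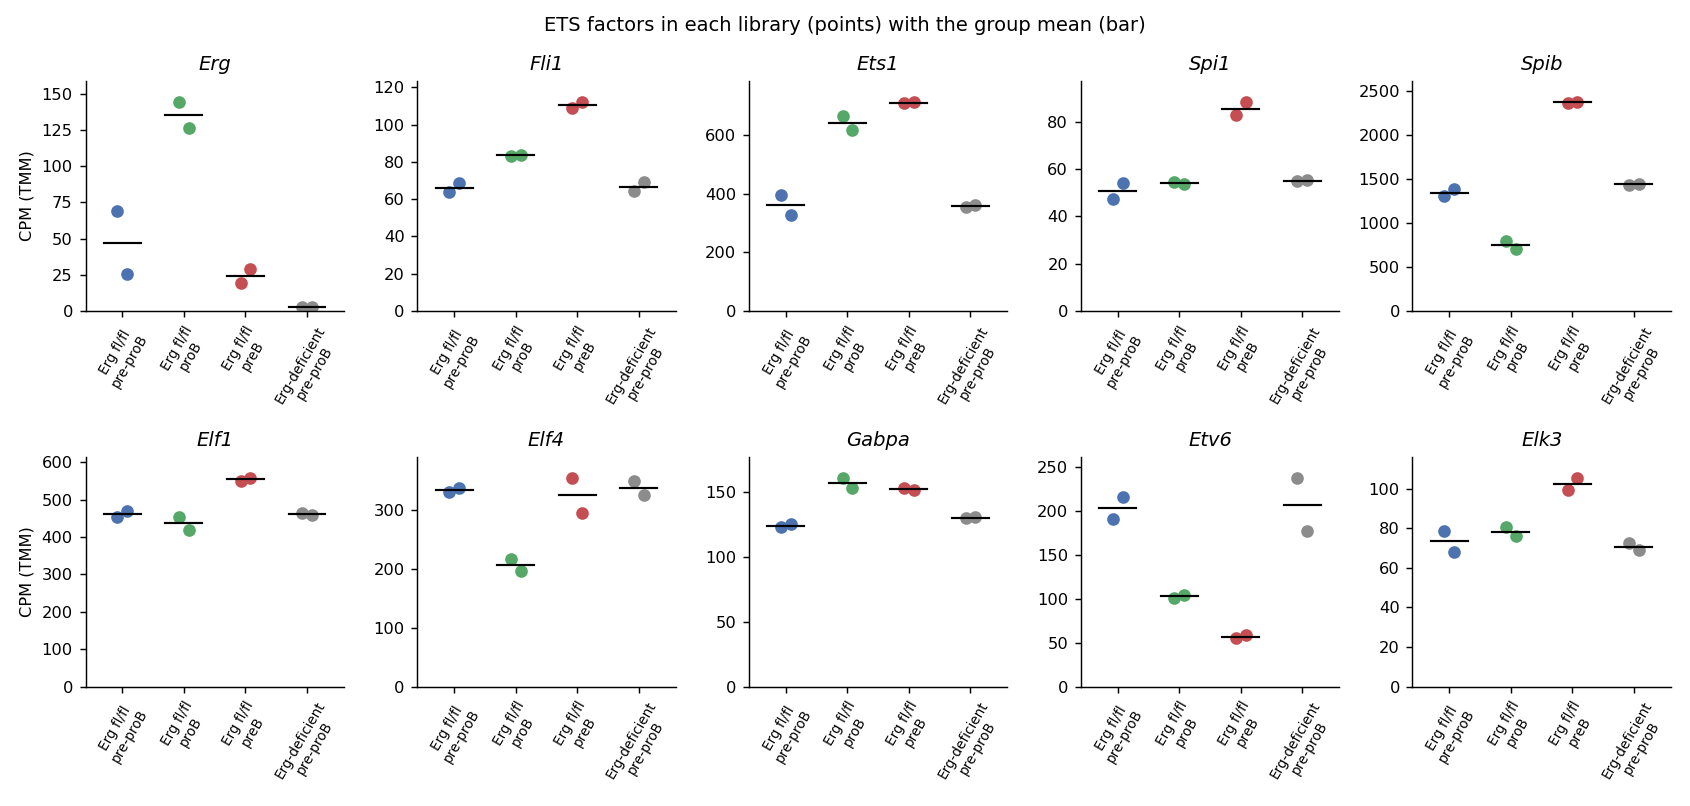
CPM (y axes, linear from 0, one scale per gene) of the 10 ETS factors in each library (points), by group (x axes), with group means as bars. Erg is near 0 in Erg-deficient pre-proB cells at 2.50 and 2.58 CPM, whereas Fli1 is at 64.4 and 69.0 CPM there and at 63.8 and 68.4 CPM in control pre-proB cells.

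The sequences before 3 of the genes are shown, for Erg as the gene that was deleted, for Spib as the most abundant of the 10 and for Etv6 as the one that fell at both steps of development. Each is the 250 bases before a RefSeq gene start in GRCm38.p6, 5′ to 3′ on the gene's strand, with the GGAA core of ETS sites or its reverse complement TTCC in capitals. Positions are chr16:95586594-95586843 on the minus strand for Erg (the most upstream of its 3 listed starts), chr7:44532072-44532321 on the minus strand for Spib and chr6:134035450-134035699 on the plus strand for Etv6.
Erg: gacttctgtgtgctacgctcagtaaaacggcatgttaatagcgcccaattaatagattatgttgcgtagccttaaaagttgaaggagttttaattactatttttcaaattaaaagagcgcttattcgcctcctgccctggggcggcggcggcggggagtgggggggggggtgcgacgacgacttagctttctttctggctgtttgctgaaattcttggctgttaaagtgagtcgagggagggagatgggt
Spib: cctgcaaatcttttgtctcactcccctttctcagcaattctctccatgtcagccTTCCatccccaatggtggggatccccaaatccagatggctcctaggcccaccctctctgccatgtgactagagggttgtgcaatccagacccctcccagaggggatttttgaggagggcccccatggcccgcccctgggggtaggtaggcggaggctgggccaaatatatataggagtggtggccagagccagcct
Etv6: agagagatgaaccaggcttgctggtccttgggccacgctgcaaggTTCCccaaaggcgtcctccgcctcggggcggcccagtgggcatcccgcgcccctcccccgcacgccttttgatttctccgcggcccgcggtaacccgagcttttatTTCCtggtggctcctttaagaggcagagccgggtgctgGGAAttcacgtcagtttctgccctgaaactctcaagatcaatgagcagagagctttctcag
The GGAA core, searched on both strands, was found 0 times before this start of Erg, 1 time before Spib and 3 times before Etv6, and 93.4% of all 32851 RefSeq windows of this length hold at least 1 with a median of 3. The windows before the other listed starts of Erg held 4 and 2. RefSeq windows were found for 7 of the 10 genes, and in their 11 windows the number of cores ran from 0 to 6. None of the 11 held the longer motif CCGGAAGT, which is in 2.88% of all windows, and AGGAAG, which itself contains the core, was in 29.5% of all windows and in 4 of the 11. These are matches of letters and not sites of binding.

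Fli1 (identifier 14247, chromosome 9, 32422204 to 32542861), the closest paralog of Erg, neither rose nor fell detectably in the bulk pre-proB libraries when Erg was lost. Its level was 63.8 and 68.4 CPM in control and 64.4 and 69.0 CPM in Erg-deficient pre-proB cells, and the libraries of the groups interleaved. The log2 fold change was 0.00060 with a 95% interval from -0.17 to 0.17 (edgeR adjusted p = 0.998). These libraries also hold RNA of other lineages, and which cells gave the Fli1 RNA was not tested. A bulk level cannot show whether Fli1 changed within B lineage cells alone. With stage, Fli1 rose at each step, to 83.0 and 83.9 CPM in proB and 109 and 112 CPM in preB cells, and no groups overlapped. The log2 fold change was 0.37 from pre-proB to proB (SE 0.0622, edgeR adjusted p = 0.000650) and 0.41 from proB to preB cells (SE 0.0605, edgeR adjusted p = 0.000548). Fli1 and Erg thus moved in the same direction at the first step and in opposite directions at the second, and both stage calls of Fli1 held under all 15 alternatives.

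Ets1 (identifier 23871, chromosome 9, 32636221 to 32757820), like Fli1, did not move detectably between genotypes. Control pre-proB cells held 396 and 326 CPM and Erg-deficient pre-proB cells 355 and 360 CPM, with the Erg-deficient libraries between the controls. The log2 fold change was -0.03 with a 95% interval from -0.28 to 0.22 (edgeR adjusted p = 0.945). As for Fli1, which cells gave this RNA was not tested. Control replicate 1, the library with more Erg and more B lineage markers, held 1.22 times the Ets1 of replicate 2. In proB cells Ets1 was at 664 and 617 CPM, a rise of 0.86 on the log2 scale (SE 0.0957, edgeR adjusted p = 4.76e-05). In preB cells it was at 708 and 712 CPM, above both proB libraries but by a log2 fold change of only 0.16 (95% interval -0.06 to 0.37, edgeR adjusted p = 0.185). Among the 10, Ets1 had the largest log2 rise from pre-proB to preB cells, 1.02 (edgeR adjusted p = 1.85e-05).

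Spi1 (identifier 20375, chromosome 2), which encodes the myeloid and lymphoid factor PU.1, was at 47.4 and 54.3 CPM in control pre-proB, 54.7 and 53.6 CPM in proB and 82.8 and 88.5 CPM in preB cells. Pre-proB and proB cells overlapped, and the preB libraries stood above both, with a log2 fold change of 0.67 from proB cells (SE 0.0784, edgeR adjusted p = 0.000157). Erg-deficient pre-proB cells were at 54.9 and 55.4 CPM, just above both controls, with a log2 fold change of 0.10 and a 95% interval from -0.08 to 0.29 (edgeR adjusted p = 0.642). Spib (identifier 272382, chromosome 7, 44525993 to 44532071) moved in opposite directions at the successive steps. It was at 1303 and 1390 CPM in control pre-proB, 796 and 706 CPM in proB and 2368 and 2378 CPM in preB cells, with no overlap between stages. The log2 fold change was -0.81 from pre-proB to proB (SE 0.0829, edgeR adjusted p = 2.83e-05) and 1.67 from proB to preB cells (SE 0.0844, edgeR adjusted p = 3.87e-06). These steps ran against those of Erg, which rose and then fell. In Erg-deficient pre-proB cells Spib was at 1432 and 1449 CPM, above both controls by a log2 fold change of 0.09 (95% interval -0.08 to 0.26, edgeR adjusted p = 0.679). Spib is also known as a factor of plasmacytoid dendritic cells, whose 6 markers fell in 6 of 6 cases from pre-proB to proB cells, and the part of those markers in the level of Spib in pre-proB cells was not tested. Irf8, a partner of PU.1 and Spi-B at shared sites, was at 3446 and 3982 CPM in control pre-proB cells and between 196 and 213 CPM in the 4 proB and preB libraries. Irf4, the partner in later B cells, ran the other way, at 73.7 and 58.5 CPM in control pre-proB, 495 and 459 CPM in proB and 914 and 859 CPM in preB cells.

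Elf1 (identifier 13709, chromosome 14), a lymphoid ETS factor of the ELF subfamily, was at 454 and 470 CPM in control pre-proB, 453 and 420 CPM in proB and 550 and 559 CPM in preB cells. The preB libraries were highest, with a log2 fold change of 0.35 from proB cells (edgeR adjusted p = 0.00248), and the proB libraries lay below the pre-proB libraries by a difference that was not called (log2 fold change -0.05, edgeR adjusted p = 0.543) and that changed sign with total counts (0.0081). Its relative Elf4 (identifier 56501, chromosome X) was at 329 and 336 CPM in control pre-proB, 217 and 197 CPM in proB and 354 and 294 CPM in preB cells. Elf4 was thus lowest in proB cells, by a log2 fold change of -0.65 from pre-proB cells (edgeR adjusted p = 0.000234), and it rose by 0.66 into preB cells (edgeR adjusted p = 0.000445) to a level that did not differ detectably from pre-proB cells (log2 fold change 0.0036, 95% interval -0.21 to 0.22). Gabpa (identifier 14390, chromosome 16), the DNA-binding subunit of GABP, which controls many housekeeping and mitochondrial genes, was at 123 and 126 CPM in control pre-proB, 161 and 153 CPM in proB and 154 and 152 CPM in preB cells. It rose into proB cells by a log2 fold change of 0.37 (edgeR adjusted p = 0.000388), and proB and preB cells overlapped. Elk3 (identifier 13713, chromosome 10), a ternary complex factor that works with Srf and is known as a repressor, was at 78.6 and 68.3 CPM in control pre-proB, 80.6 and 76.0 CPM in proB and 99.6 and 106 CPM in preB cells. It rose from proB to preB cells by a log2 fold change of 0.40 (edgeR adjusted p = 0.00223), while pre-proB and proB cells overlapped. In the Erg-deficient pre-proB libraries Elf1 was at 465 and 460 CPM, Elf4 at 348 and 325, Gabpa at 130 and 131 and Elk3 at 72.5 and 69.1. The log2 fold changes of these 4 genes against controls lay between -0.06 and 0.06, and edgeR adjusted p-values were 0.740 or more. Exons of Elf1, Gabpa and Elk3 overlap those of Wbp4, Atp5j and Cdk17 on the opposite strand over 4.85%, 6.98% and 6.95% of their length. How reads there were assigned depends on whether strand was used in counting, which is not stated.

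Etv6 (identifier 14011, chromosome 6, 134035700 to 134270158), a repressor, was the only one of the 10 that fell at both steps. It was at 191 and 215 CPM in control pre-proB, 101 and 105 CPM in proB and 55.3 and 58.3 CPM in preB cells, with every stage clear of the others. The log2 fold change was -0.94 from pre-proB to proB (SE 0.0745, edgeR adjusted p = 5.37e-06) and -0.85 from proB to preB cells (SE 0.0777, edgeR adjusted p = 4.27e-05), so preB cells held 28.0% of the mean of pre-proB cells. The Erg-deficient libraries, at 238 and 176 CPM, enclosed both controls and were the most widely spaced pair of that group, with a log2 fold change of 0.02 (95% interval -0.31 to 0.34, edgeR adjusted p = 0.973). Exons of Etv6 overlap Gm17089 on the opposite strand over 2.26% of their length.

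Counted by comparison, 1 of the 10 genes, Erg, was called between the genotypes, where 1.16% of all 13005 genes tested were called, 0.215% higher and 0.946% lower. The libraries of the genotypes did not overlap for 4 of the 10, Erg, Spi1, Spib and Gabpa, and for 44.7% of all genes. The 9 genes other than Erg had log2 fold changes between -0.06 and 0.10, and the interval of each included 0. The widest of those intervals, that of Etv6, ran from -0.31 to 0.34. From pre-proB to proB cells 7 of 10 were called and 8 did not overlap, against 73.0% and 87.7% of 13650 genes. Erg, Fli1, Ets1 and Gabpa rose, as 36.2% of all genes did, and Spib, Elf4 and Etv6 fell, as 36.8% did. From proB to preB cells 8 of 10 were called and 9 did not overlap, against 58.9% and 81.6% of all genes. Fli1, Spi1, Spib, Elf1, Elf4 and Elk3 rose (29.0% of all genes) and Erg and Etv6 fell (29.9%). Between preB and pre-proB cells 8 of 10 were called and 8 did not overlap, against 70.7% and 84.8% of all genes, with Etv6 lower (34.1% of all genes) and 7 of the 10 higher (36.5%). Most genes differed between stages in these libraries, so the counts of ETS genes called between stages are not read as a result about the family. The median log2 fold change of the 10 was 0.12, 0.38 and 0.43 in these 3 stage comparisons, beside 0.0040, -0.00045 and 0.04 over all genes tested. The control pre-proB libraries enter the genotype comparison and both stage comparisons with pre-proB cells, which are therefore not independent of each other.

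**Figure D2:**
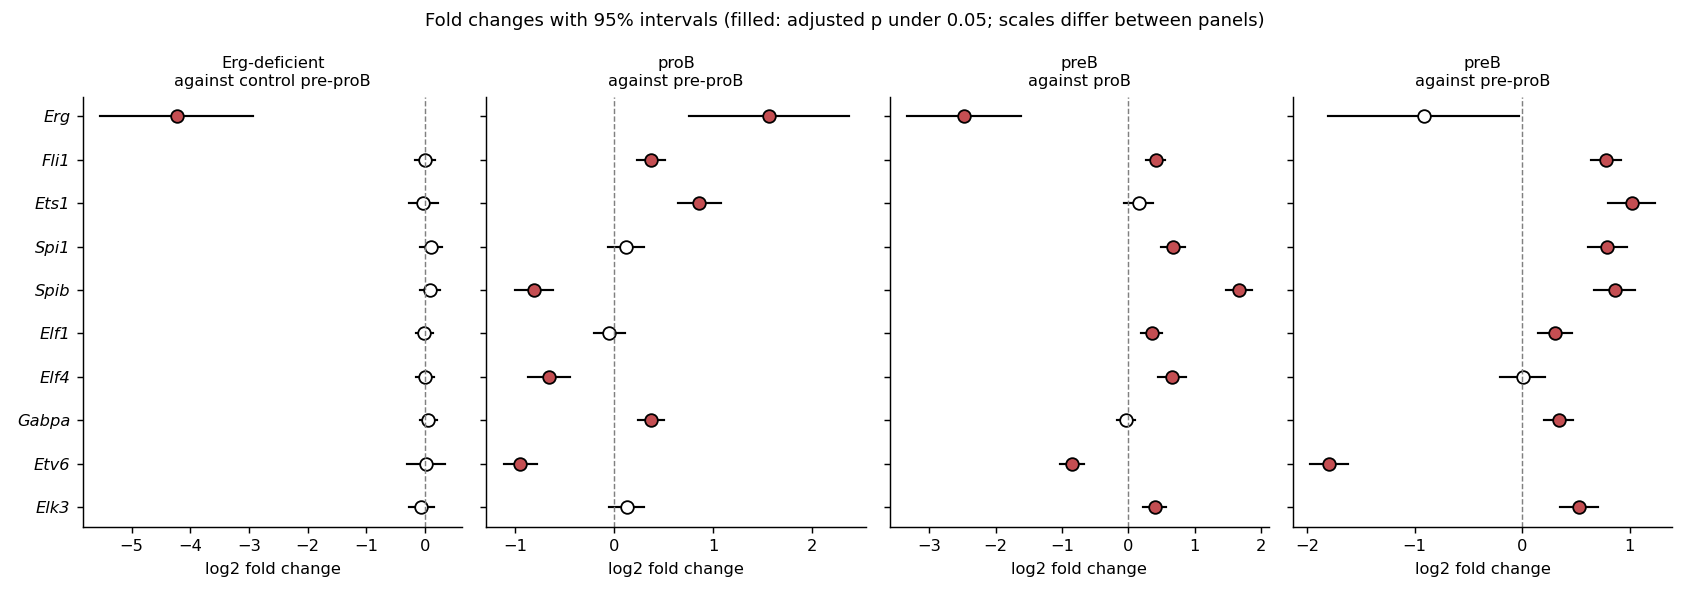
Log2 fold changes (x axes, scales differ between panels) of the 10 ETS factors (rows) in 4 comparisons, with 95% intervals as lines and filled points where the edgeR adjusted p was below 0.05. Between genotypes Erg is at -4.23 and the other 9 lie between -0.06 and 0.10, while 7, 8 and 8 points are filled in the stage comparisons.

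On the FPKM scale, which allows genes to be set beside each other, Spib was the most abundant of the 10 in all 8 libraries. Of the summed FPKM of the 10, Spib made up 60.7% and 63.1% in control pre-proB libraries, 45.7% and 44.4% in those of proB cells and 70.3% and 70.5% in those of preB cells. Erg made up 6.86% and 6.58% in proB cells, where it ranked 4 of 10, and was the lowest of the 10 in control pre-proB replicate 2, both preB libraries and both Erg-deficient libraries. In control pre-proB replicate 1 it ranked 7. The summed level was 749 and 768 FPKM in control and 785 and 778 FPKM in Erg-deficient pre-proB cells. ProB cells held 607 and 555 FPKM and preB cells 1174 and 1177 FPKM. The order of the group means was thus preB, Erg-deficient pre-proB, control pre-proB and proB cells, with no overlap between any of the 4. The mean of the Erg-deficient libraries, 781 ± 5.10 FPKM (SD, n = 2), was 1.03 times that of the controls, 758 ± 13.4 FPKM (SD, n = 2), and the exact two-sided permutation p was 0.33. With total counts in place of TMM this order turned, at 746 FPKM in Erg-deficient and 747 FPKM in control cells. FPKM depends on the exon length assigned to each gene, and with coding lengths Erg ranked 6 in both proB libraries and 9 in control pre-proB replicate 1.

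**Figure D3:**
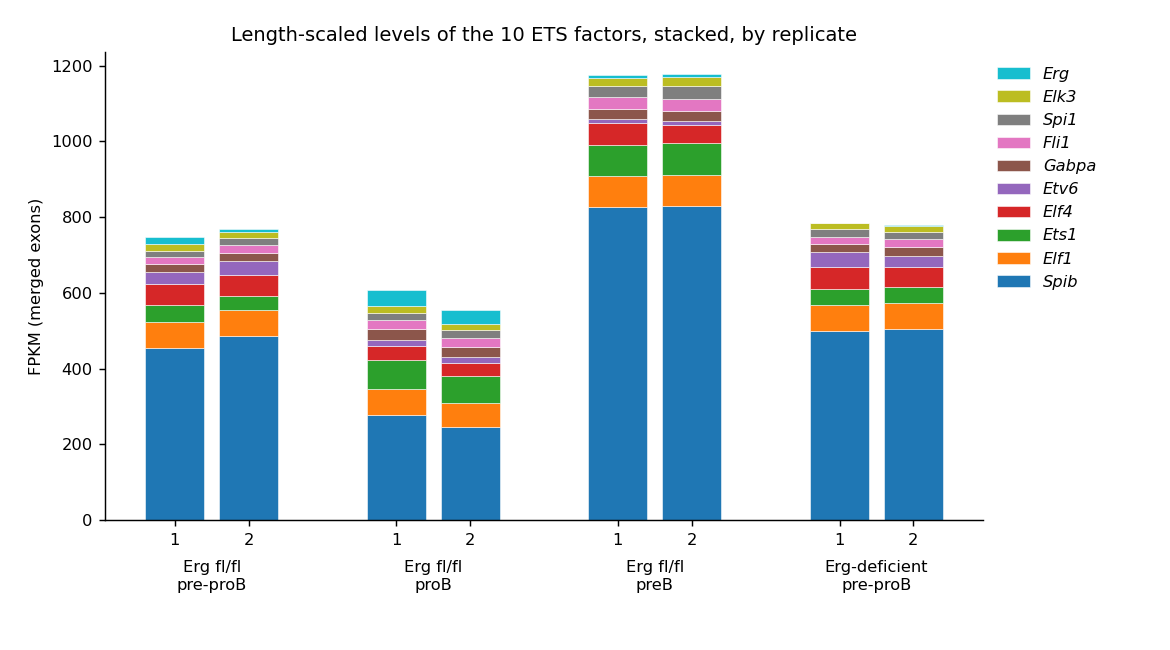
FPKM (y axis, linear from 0) of the 10 ETS factors stacked in each library (bars, replicates 1 and 2 of each group on the x axis). Spib is the largest segment in every bar, between 246 and 829 FPKM, and the Erg segment is largest in proB cells at 41.7 and 36.5 FPKM.

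The balance of the paralogs Erg and Fli1 changed with stage, and between genotypes the deleted gene is itself a part of it. Of Erg plus Fli1 in FPKM, Erg was 52.1% and 27.2% in control pre-proB libraries and 3.76% and 3.63% in Erg-deficient ones. Its share was 63.6% and 60.3% in proB cells and 15.4% and 20.5% in preB cells. Fli1 exceeded Erg in 5 of the 8 libraries, by 25.6 and 26.6 times in the Erg-deficient ones. Erg plus Fli1 together came to 38.3 and 26.9 FPKM in control pre-proB and 19.2 and 20.5 FPKM in Erg-deficient pre-proB cells, and to 65.5 and 60.6 FPKM in proB and 36.8 and 40.4 FPKM in preB cells. The mean sum in Erg-deficient cells was 0.609 times that of controls (exact two-sided permutation p = 0.33), and the Erg-deficient and control libraries did not overlap. Erg, deleted by design, is a part of this sum and of the shares and ratios above. Their differences between genotypes therefore hold the deletion itself and are not read as a separate result. Mean Erg was 13.6 FPKM in control and 0.733 FPKM in Erg-deficient libraries. In these bulk libraries Fli1 did not make up this difference, at 18.3 and 19.6 FPKM in control and 18.5 and 19.8 FPKM in Erg-deficient libraries.

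The family also includes pairs of neighbouring genes, and Erg and Fli1 each lie beside a gene of the ETS subfamily on the opposite strand. Erg and Ets2 are separated by 115.5 kb on chromosome 16 and Fli1 and Ets1 by 93.4 kb on chromosome 9, with no protein-coding gene between either pair in GENCODE. Ets2 was at 3.79 and 4.01 CPM in control pre-proB, 28.0 and 23.8 CPM in proB and 73.8 and 70.4 CPM in preB cells. It rose at both steps, by a log2 fold change of 2.76 (edgeR adjusted p = 1.63e-07) and then 1.48 (edgeR adjusted p = 6.30e-06), while Erg rose and then fell. In Erg-deficient pre-proB cells Ets2 was at 2.75 and 2.65 CPM, below both controls, with a log2 fold change of -0.54 (95% interval -1.09 to 0.01, edgeR adjusted p = 0.409).

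**Figure D4:**
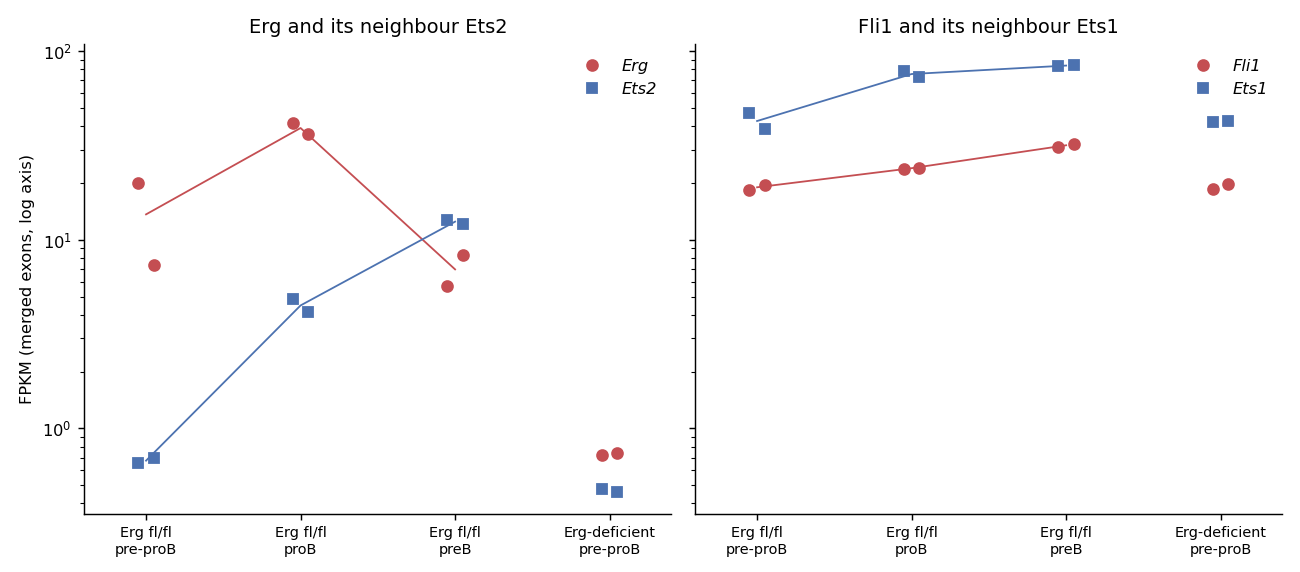
FPKM (y axis, logarithmic) of Erg with its neighbour Ets2 and of Fli1 with its neighbour Ets1 in each library (points) by group (x axis), with lines joining the means of the Erg fl/fl stages. Ets2 rises from 0.655 and 0.694 FPKM in pre-proB to 12.8 and 12.2 FPKM in preB cells while Erg goes from 41.7 and 36.5 FPKM in proB to 5.65 and 8.27 FPKM in preB cells.

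Of 17 further ETS family genes, 9 passed the filter and 0 were called between genotypes by edgeR. Erg was the only ETS gene called there among 19 tested. Of all 13005 genes 151 (1.16%) were called and 1624 had an unadjusted p below 0.05. The lack of further ETS calls is therefore not read as a result about the family. The largest of the 9 in size was Spic at a log2 fold change of 1.05 (edgeR adjusted p = 0.408), from levels of 1.01 CPM or less in every library. Elk4, a ternary complex factor like Elk3, was at 60.8 and 43.9 CPM in control and 38.4 and 38.5 CPM in Erg-deficient cells (log2 fold change -0.46, edgeR adjusted p = 0.287). Between stages 7 of the 9 were called from pre-proB to proB cells (5 higher, 2 lower), 3 from proB to preB cells (2 higher, 1 lower) and 7 between preB and pre-proB cells (4 higher, 3 lower), where 73.0%, 58.9% and 70.7% of all genes were called. Etv1 was the largest fall, from 10.3 and 10.5 CPM in control pre-proB to 0.765 and 0.669 CPM in proB cells (log2 fold change -3.81, edgeR adjusted p = 8.59e-07). It was at 8.81 and 9.49 CPM in Erg-deficient pre-proB cells.

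Genes that work with ETS factors, a list of 13 cofactors and binding partners, held 12 that were tested and 1 that was called between genotypes. Of all genes tested 1.16% were called there. The called partner was Lyl1, a partner of Erg and Fli1 at stem cell enhancers, at 43.2 and 41.9 CPM in control and 25.8 and 30.7 CPM in Erg-deficient pre-proB cells (log2 fold change -0.60, edgeR adjusted p = 0.0466). The Lyl1 call was lost under 6 of 15 alternatives, among them leaving out control replicate 1 (adjusted p = 0.101) or either Erg-deficient library (0.192 and 0.103) and the replicate block (0.0648). Runx1 was at 126 and 128 CPM in control and 119 and 121 CPM in Erg-deficient cells (log2 fold change -0.09, edgeR adjusted p = 0.588), and Lmo2 at 136 and 144 CPM against 156 and 151 CPM (log2 fold change 0.12, edgeR adjusted p = 0.470). From pre-proB to proB cells 11 of the 12 partners were called, 8 higher and 3 lower, against 73.0% of all genes, 36.2% higher and 36.8% lower. Lyl1 rose to 128 and 134 CPM (log2 fold change 1.66, edgeR adjusted p = 7.32e-08), and Lmo2 fell to 22.5 and 24.1 CPM (log2 fold change -2.55, edgeR adjusted p = 4.79e-08).

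Of 8 genes known as targets of ETS factors in lymphoid or myeloid cells, 8 were tested and 3 were called between genotypes, all lower. Of all genes tested 1.16% were called there and 0.946% were called lower. The study reports Erg as a direct regulator of Ebf1 and Pax5, in part from these same libraries. Both genes also passed the filter only through the control libraries. The count of targets called is therefore not read as a result about ETS targets. Ebf1, which encodes an early B cell factor, was at 59.1 and 21.3 CPM in control and 0.437 and 0.516 CPM in Erg-deficient pre-proB cells (log2 fold change -6.39, edgeR adjusted p = 0.0178). Pax5 (log2 fold change -6.06, edgeR adjusted p = 0.0356) and Cd79a (-5.06, edgeR adjusted p = 0.0214) were lower as well, and these 3 are also among the 8 B lineage markers, of which 7 were called lower. Pax5 was at 26.8 and 7.78 CPM in control and 0.437 and 0.0646 CPM in Erg-deficient cells. In the Erg-deficient libraries this came from 7 counts and 1 count, and Ebf1 from 7 and 8 counts, so the sizes of these falls are imprecise. Il7r, a target of PU.1 and GABP, was at 414 and 416 CPM in control and 436 and 472 CPM in Erg-deficient cells (log2 fold change 0.12, edgeR adjusted p = 0.543). Blnk, Btk, Flt3 and Csf1r, all targets of PU.1, had log2 fold changes between -0.31 and 0.10 there and were not called. As with Erg, the edgeR calls of Ebf1, Pax5 and Cd79a were lost under robust estimation and without either Erg-deficient library, with adjusted p-values between 0.165 and 0.365. They were lost with limma-voom too (adjusted p = 0.283, 0.329 and 0.189), and that of Pax5 also with the version 4 quasi-likelihood test of edgeR (0.0732). Cd79a had a log2 fold change of -4.11 without control replicate 1 and -5.64 without control replicate 2, -4.72 without Erg-deficient replicate 1 and -5.49 without Erg-deficient replicate 2. That of Pax5 was -7.92 without Erg-deficient replicate 1, where 1 count was left, and -5.30 without Erg-deficient replicate 2, where 7 counts were left. In proB cells Ebf1 reached 250 and 253 CPM, Pax5 172 and 168 CPM and Cd79a 784 and 790 CPM, and all 8 targets were called from pre-proB to proB cells, 6 higher and 2 lower, again against 73.0% of all genes. The 2 that fell were Flt3 and Csf1r, receptors of early progenitors and myeloid cells.

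Across the 8 libraries the genes with a profile most like that of Erg were not ETS genes. Likeness was the root mean square difference of log2 CPM from Erg after centring each gene on its own mean, over 13477 genes, and it is a description only. Both Erg-deficient libraries, where Erg was deleted by design, entered this measure. A gene that was not lost there therefore differs from Erg whatever its course over the stages. The 5 nearest were Efhd1 (0.25), Rgs8 (0.27), Art4 (0.35), Ttll11 (0.36) and Thrb (0.36), none of which was above 21.3 CPM in any library. Ttll11, for example, was at 7.64 and 3.34 CPM in control pre-proB, 20.6 and 21.3 CPM in proB, 2.56 and 3.61 CPM in preB and 0.0625 and 0.194 CPM in Erg-deficient pre-proB cells. It thus repeated the gap between the control pre-proB replicates. Of the other 9 ETS genes Ets1 was nearest, with a difference of 1.88 and rank 2599, followed by Gabpa at rank 4850 and Fli1 at rank 4851, and Etv6 was farthest at rank 10829.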

How the data were processed

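The authors sequenced 100 bp paired-end reads of polyadenylated RNA from 8 libraries, removed adapters with Trim Galore, aligned to mm10 with STAR and counted with featureCounts, using the annotation by Entrez identifier built into Rsubread. The submitters' processing notes also name CASAVA 1.8.2. The deposited values are raw counts, whole numbers with no normalization. The sources used here do not say how strand or multi-mapping reads were treated. Symbols were matched through RefSeq for 25275 of 27179 identifiers, and positions and lengths came from GENCODE (GRCm38).

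Fold changes came from edgeR 4.0.16 in R 4.3.3 (TMM, at least 0.5 CPM in at least 2 libraries, legacy quasi-likelihood test, Benjamini-Hochberg adjustment), with 1 model for the pre-proB libraries (4) and 1 for the Erg fl/fl libraries (6). Standard errors are the log2 fold change over the square root of F. Libraries were grouped by their labels, and replicates of every group differed by more than counting noise (chi-square per degree of freedom 3.82 to 8.29). The procedure was tested on simulated data with changes larger than most of those given here for the 10 genes. That test does not show how well small changes are found. Members, gene lists and tests were chosen with earlier results of these data known. Named genes are the 10 members, list genes that were called or stand beside a member's result, and the 5 most like Erg. Alternatives were other scalings, filters, tests (DESeq2 1.42.0, limma-voom with limma 3.58.1), fits and gene lengths, a replicate block, and each library left out. Those for genes outside the 10 were added after seeing the data. Figures used matplotlib.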

Additional observations from a re-analysis of the deposited data

How the results depend on the processing

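Stage counts changed little: 6 to 7 ETS genes were called from pre-proB to proB cells, 8 from proB to preB cells and 8 to 9 between preB and pre-proB cells under all alternatives run. Between genotypes the count was 0 with limma-voom and 0 under robust estimation, against 1, and 0 to 1 when a library was left out, where a lone library is assumed to vary like the other group. Differences between replicates correlated at -0.03 to 0.118 between groups. Such low values can arise with or without shared mice, so they cannot decide whether libraries of the same number are paired. With a replicate block 1, 7, 8 and 8 of the 10 genes were called, the counts without it, though 265 genes in all were called between genotypes in place of 151. All genes called between genotypes numbered 400 with DESeq2, 41 with limma-voom, 442 with all 8 libraries in one fit, 279 with no filter and 10 (without Erg-deficient replicate 2) to 401 (without control replicate 2) when a library was left out.

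Mean summed FPKM with the longest coding transcripts was 855 in control pre-proB, 694 in proB, 1323 in preB and 879 in Erg-deficient pre-proB cells, against 758, 581, 1176 and 781 with merged exons. With coding lengths it was 2707, 2179, 4225 and 2797. With total counts in place of TMM it was 1191 in preB and 746 in Erg-deficient pre-proB cells, the latter below the 747 of controls, so the order of the genotypes turns with the scaling.

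Genes with fold changes near 0 changed sign without reaching the threshold, and no change is claimed for them. Between genotypes Fli1 had log2 fold changes of -0.0022 with DESeq2 size factors and with DESeq2, -0.034 with total counts, -0.0014 with a filter of 1 CPM, -0.00031 with limma-voom and -9.8e-05 without immunoglobulin genes, and between -0.051 and 0.050 when a library was left out. With total counts Elf4 was -0.032 and Etv6 -0.015, and with all 8 libraries Elf1 was 0.0017. Leaving out a library gave Elf4 -0.048 to 0.052, Etv6 -0.21 to 0.22, Ets1 -0.18 to 0.13 and Elk3 -0.18 to 0.051. From pre-proB to proB cells Elf1 was 0.0081 with total counts, and leaving out a library gave Spi1 -0.024 to 0.20 and Elk3 -0.00024 to 0.18. Between preB and pre-proB cells Elf4 was -0.033 with DESeq2 size factors and with DESeq2, -0.051 with no filter, -0.031 with a filter of 1 CPM, -0.0019 with limma-voom, -0.038 with all 8 libraries, -0.0022 with the replicate block and -0.12 to 0.10 when a library was left out. Erg between preB and pre-proB cells passed the threshold with no filter (edgeR adjusted p = 0.0439) and with all 8 libraries (0.0436). The causes were not tested.

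Leaving out a control pre-proB library took Ebf1 and Pax5 below the filter in the genotype comparison, so these give no value. With 2 libraries a group, the intervals between genotypes leave room for changes of Fli1 of up to 0.17 on the log2 scale in either direction, and the 80 counts of Erg in Erg-deficient cells cannot be split by exon. Only the RNA-seq counts were analysed here.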
